A study of Mus musculus with 18 samples.

Results

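The genes followed were 10 members of the glutamatergic synapse: the AMPA receptor subunits Gria1, Gria2, Gria3 and Gria4, the NMDA receptor subunits Grin1, Grin2a and Grin2b, the metabotropic receptor Grm5, and the neuronal pentraxins Nptx1 and Nptxr. Members were all probe sets that the array annotation assigns to 1 of these genes and to no other gene. This gave 8 of the 10 genes, out of 18193 genes with such a probe set in the series. The 8 genes had 11 probe sets on the cortex A chip, 8 on the cortex B chip and 19 in the table of samples titled rest. Grin1 had no probe set annotated to it alone and was not analysed here. The probe sets that carry the name Nptxr (2 on the A chip, 1 on the B chip and 3 in the rest table) also carry the name Npcd and were left out.

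RNA came from mouse brain at postnatal day 7, from wild-type animals and from conditional knockouts of Brca1, a DNA repair gene. In the knockouts, 1 allele of Brca1 is null through an inverted neo cassette at exon 11, the other is floxed around exons 5 to 13, and Cre is driven by the nestin promoter. That promoter is active in neural progenitors, so neurons and most glia descend from recombined cells, whereas vessel, meningeal and microglial cells mostly do not. Each table held 3 wild-type and 3 knockout arrays. The source of the rest samples is given as P7 brain, and the labels do not say which regions they hold.

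AMPA receptors are tetramers of the Gria subunits and carry most of the fast excitatory current in the brain. The Gria2 subunit sets their calcium permeability. NMDA receptors pair the obligatory Grin1 subunit with Grin2 subunits, and Grin2b dominates in the newborn cortex before Grin2a is added as synapses mature. Grm5 encodes a G protein-coupled glutamate receptor of neurons and young astrocytes. Neuronal pentraxins are secreted or membrane-anchored proteins that gather AMPA receptors at synapses.

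Signals are the authors' probe set intensities, brought here to a common level within each table. Different probe sets have different affinities, so levels are not compared between genes, and tables were never set against each other as levels. Log2 changes are knockout minus wild type on log2(signal + 16), with the standard error (SE) of a limma fit. A probe set was called at a Benjamini-Hochberg adjusted p under 0.05 over all probe sets of its table, and was tested where 2 or more arrays per genotype listed a signal. Arrays listed a signal for 33.6% to 58% of probe sets and left the rest blank, for a reason the labels do not give. The cortex animals are stated to be separate mice. For the rest samples nothing says so, and p-values then measure only the spread between these samples. The number of arrays limits the precision.

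Genotype was partly joined with sex. Xist read 2662 to 2856 on the 3 wild-type A chips and 2186 in knockout replicate 3, against 54.3 and a blank in knockout replicates 1 and 2. Eif2s3y, a gene of the Y chromosome, had a listed signal in those same 2 knockout replicates and no other sample of any table. Of 4 Brca1 probe sets on the A chip 3 were blank throughout, and the other read 38, 36.9 and 48.9 in wild type and 51.4, 44 and 61.4 in knockout (log2 change 0.25, limma adjusted p = 0.496). The exon it reads is not given, so it does not check the labels.

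In the cortex, 1 Gria1 probe set fell and 1 Nptx1 probe set rose. In bulk tissue fewer cells of a type and less RNA per cell cannot be told apart. These were the only calls among 7 tested member probe sets of the A chip. None of 8 was called on the B chip and none of 17 in the rest table. Over all probe sets, limma called 3.02% on the A chip (2.3% higher and 0.713% lower in knockouts), 0.281% on the B chip and 0.313% in the rest table. At an unadjusted limma p under 0.05, 3 of 7, 0 of 8 and 2 of 17 member probe sets passed, beside 15.7%, 7.39% and 10.5% of all probe sets tested. Knockout signals were lower for 5 of 7, 6 of 8 and 14 of 17 member probe sets, against 52.1%, 49.9% and 49.8% of all probe sets. The sign turned in 1 or more alternative settings, averaging over a gene's probe sets included, for 13 of the 32 tested member probe sets, of which 0 were called. The median log2 changes of the members were -0.16, -0.08 and -0.11, and those of all probe sets were -0.01, 0.00 and 0.00.

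Gria1 encodes the subunit whose delivery to synapses is regulated during plasticity. Its probe set 1435239_at read 977, 1017 and 979 in wild-type cortex and 767, 658 and 668 in knockout cortex. The wild-type arrays lay close together and all 3 knockout arrays lay well below them, including knockout replicate 3, the only knockout array with a high Xist signal. The means were 990.9 ± 22.5 and 697.8 ± 60.5 (SD, n = 3 each). The log2 change was -0.50, with an SE of 0.0809 and a limma adjusted p of 0.00699. The call held in 19 of 20 alternative settings. Among them, the adjusted p of 0.10 only loosened the threshold on the same fit, so the call could not be lost there. With a term for the sex markers, which leaves knockout replicate 3 as the array compared with wild type, the log2 change was -0.56 (limma adjusted p = 0.0797).

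The other Gria1 probe set, 1448972_at, read 859, 687 and 724 in wild-type cortex and 679, 587 and 702 in knockout cortex. These groups overlapped (log2 change -0.20, SE 0.103, limma adjusted p = 0.39). Averaged over both probe sets, the Gria1 log2 change in cortex was -0.35 (SE 0.0785, limma adjusted p = 0.0286 over 6778 genes).

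Among the rest samples it was 1448972_at whose groups separated. It read 804, 999 and 529 in wild type and 445, 422 and 430 in knockout, so the knockout arrays lay close together and below a widely spread wild-type group. The means were 777.3 ± 236 and 432.7 ± 11.7 (SD, n = 3 each). The log2 change was -0.78, with an SE of 0.186, and did not pass (limma adjusted p = 0.16). Without wild-type replicate 3, the lowest wild-type array, it passed (-1.02, limma adjusted p = 0.0204). The probe set 1435239_at read 977, 1533 and 943 in wild type and 1132, 873 and 940 in knockout. Its groups overlapped (log2 change -0.20, limma adjusted p = 0.752), and wild-type replicate 2 stood highest for both Gria1 probe sets. Without that array the change of 1435239_at was 0.02.

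**Figure D1:**
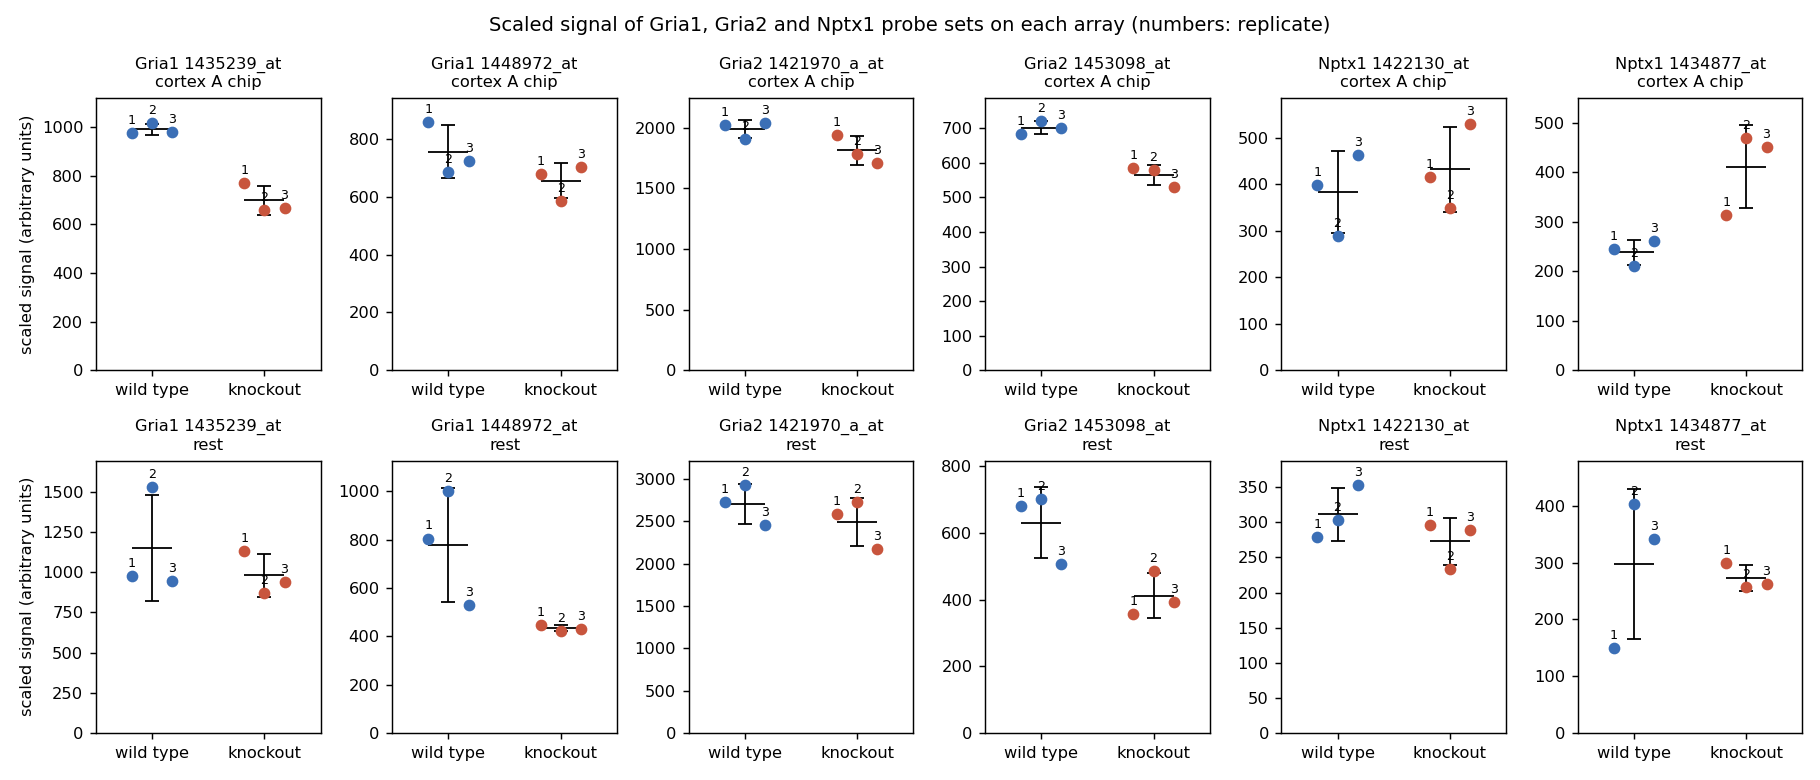
Scaled signal (arbitrary units, axis from 0) of 6 Gria1, Gria2 and Nptx1 probe sets on each array, 3 per genotype, for A chips (upper row) and the rest table (lower row); numbers mark replicates, lines the mean and bars the SD. In the cortex, knockout arrays lie below all wild-type arrays for Gria1 1435239_at (658 to 767 against 977 to 1017) and above them for Nptx1 1434877_at (315 to 468 against 211 to 261).

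Gria2 encodes the subunit that makes AMPA receptors nearly impermeable to calcium. Its probe set 1453098_at was lower in every knockout array than in every wild-type array of both tables that hold it, without passing in either. In cortex the wild-type arrays gave 683, 720 and 702 and the knockout arrays 585, 579 and 530 (log2 change -0.31, SE 0.0782, limma adjusted p = 0.068). The rest arrays gave 682, 702 and 508 in wild type and 356, 487 and 393 in knockout (log2 change -0.59, SE 0.147, limma adjusted p = 0.181).

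The other Gria2 probe sets did not separate the genotypes. The bright 1421970_a_at averaged 1989 ± 71.3 in wild-type cortex and 1812 ± 120 in knockouts (SD, n = 3 each; log2 change -0.14, limma adjusted p = 0.393), and in the rest table its log2 change was -0.12 (limma adjusted p = 0.731). The probe set 1434146_at differed by -0.06 on the B chip (95% interval -0.41 to 0.29) and by -0.02 in the rest table (95% interval -0.18 to 0.13). Its 6 rest arrays all lay between 899 and 954. The mean of the Gria2 probe sets had a log2 change of -0.22 on the A chip (SE 0.0664, limma adjusted p = 0.0947) and -0.24 in the rest table (SE 0.0853, limma adjusted p = 0.324).

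Gria3, the X-linked AMPA subunit gene, read 155, 162 and 145 in wild-type cortex and 136, 131 and 140 in knockout cortex with 1420563_at. The groups did not overlap, but the log2 change of -0.16 (SE 0.113) did not pass (limma adjusted p = 0.555). The probe set 1434728_at on the B chip read 518, 660 and 542 in wild type and 764, 730 and 509 in knockout, with overlap and a change of the opposite sign (0.20, SE 0.176, limma adjusted p = 0.901). With the sex-marker term, which leaves knockout replicate 3 as the array compared with wild type, this change turned to -0.16, the same sign as on the A chip. Both Gria3 probe sets were slightly higher in the knockout rest samples (0.11 and 0.15, limma adjusted p = 0.797 and 0.764). On the B chip the 2 arrays that list Eif2s3y, at 764 and 730, were the highest of the 6. On the A chip the same knockout replicates, at 136 and 131, were the lowest of the 6. In the rest table knockout replicate 3, which does not list Eif2s3y, was highest for both Gria3 probe sets (215 and 320). The part of sex in these values was not tested.

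Gria4, which encodes a subunit found in interneurons and in oligodendrocyte precursors among other cells, was read in cortex by the B chip. The probe set 1435722_at gave 1498, 1574 and 1530 in wild type and 1484, 1534 and 1160 in knockout. Knockout replicate 3 was the low array, and the groups overlapped (log2 change -0.15, SE 0.135, limma adjusted p = 0.901). The dimmer 1440891_at read 158 ± 19.8 and 161.1 ± 7.33 (SD, n = 3 each). The 3 Gria4 probe sets of the rest table had log2 changes of 0.18, -0.07 and -0.14, with limma adjusted p between 0.79 and 0.887. The probe set 1421351_at was blank on 5 of 6 cortex A chips and listed on all 6 rest arrays, at 88.1 to 141.

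Of the AMPA subunit probe sets tested, 1 was thus called. Genotypes did not overlap for 4 of the 7 member probe sets listed on all A chips (Gria1 1435239_at, Gria2 1453098_at, Gria3 1420563_at and Nptx1 1434877_at), for 1 of 8 on the B chip and for 2 of 16 in the rest table. The shares among all probe sets listed on all 6 arrays were 21.6%, 13.6% and 16.4%, so the B chip and rest counts of members were near the background.

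NMDA receptor subunits showed no call. Grin2a, the subunit gene of maturing synapses, was blank on all 6 cortex A chips and all 6 rest arrays. For Grin2b, the probe set 1457003_at read 1944, 1972 and 1510 in wild-type cortex and 1525, 2065 and 1680 in knockout cortex, with overlap (log2 change -0.04, 95% interval -0.36 to 0.28, limma adjusted p = 0.993). The probe set 1442370_at read 403, 402 and 393 in wild type and 434, 294 and 352 in knockout, so the knockout arrays were spread on both sides of a tight wild-type group (-0.16, SE 0.175, limma adjusted p = 0.929).

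Of the rest samples, knockouts were lower by small amounts for the 3 tested Grin2b probe sets (-0.11, -0.19 and -0.13, limma adjusted p between 0.748 and 0.945). There, 1457003_at read 628, 643 and 532 in wild type and 615, 486 and 546 in knockout. The probe set 1422223_at was listed on 5 rest arrays and on 4 cortex A chips, only 1 of them a knockout, and was not tested in cortex. The probe set 1431700_at was blank throughout.

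Grm5 has its probe sets on the B chip and in the rest table. The brighter, 1455272_at, read 2031, 2213 and 2036 in wild-type cortex and 2009, 1968 and 1306 in knockout cortex. The groups did not overlap, by a narrow margin, and knockout replicate 3 was far below the others (log2 change -0.27, SE 0.157, limma adjusted p = 0.789). The other, 1456119_at, read 758 ± 67 and 709.2 ± 73.6 (SD, n = 3 each). The rest table gave changes of -0.03 (95% interval -0.33 to 0.26) and -0.06 (95% interval -0.35 to 0.24).

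Nptx1 encodes a secreted pentraxin that binds AMPA receptors from the presynaptic side. Its probe set 1434877_at read 244, 211 and 261 in wild-type cortex and 315, 468 and 451 in knockout cortex. All knockout arrays were higher, with replicate 1 nearest to the wild type. The means were 238.6 ± 25.1 and 411.1 ± 84.1 (SD, n = 3 each), 1.72-fold, and the log2 change was 0.73 (SE 0.147, limma adjusted p = 0.0227). This call was less stable than that of Gria1. On the wild-type side it was lost without replicate 1 (0.75, limma adjusted p = 0.0661) or 2 (0.65, 0.0744), and on the knockout side without replicate 2 (0.63, 0.111) or 3 (0.66, 0.0963). It was also lost without a variance trend (limma adjusted p = 0.0553), with blanks set to a low signal (0.0802) and with the sex-marker term (0.88, 0.131).

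The other Nptx1 probe set, 1422130_at, gave 398, 289 and 463 in wild-type and 416, 350 and 531 in knockout cortex. The groups overlapped (log2 change 0.17, SE 0.176, limma adjusted p = 0.706). This change was -0.01 without wild-type replicate 2, 0.02 without knockout replicate 3 and 0.48 in the fit with sex markers (limma adjusted p 0.987, 0.975 and 0.524). Averaged over both probe sets, the Nptx1 log2 change was 0.45 (SE 0.135, limma adjusted p = 0.0934), which did not pass. Among the rest samples neither probe set separated the genotypes. There, 1434877_at read 149, 402 and 342 in wild type and 299, 257 and 263 in knockout (-0.01, SE 0.288, limma adjusted p = 0.992), with wild-type replicate 1 far below the rest of its group. Its sign was not stable: the change ran from -0.42 without wild-type replicate 1 to 0.25 without wild-type replicate 2. The log2 change of 1422130_at was -0.18 (SE 0.13, limma adjusted p = 0.689).

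**Figure D2:**
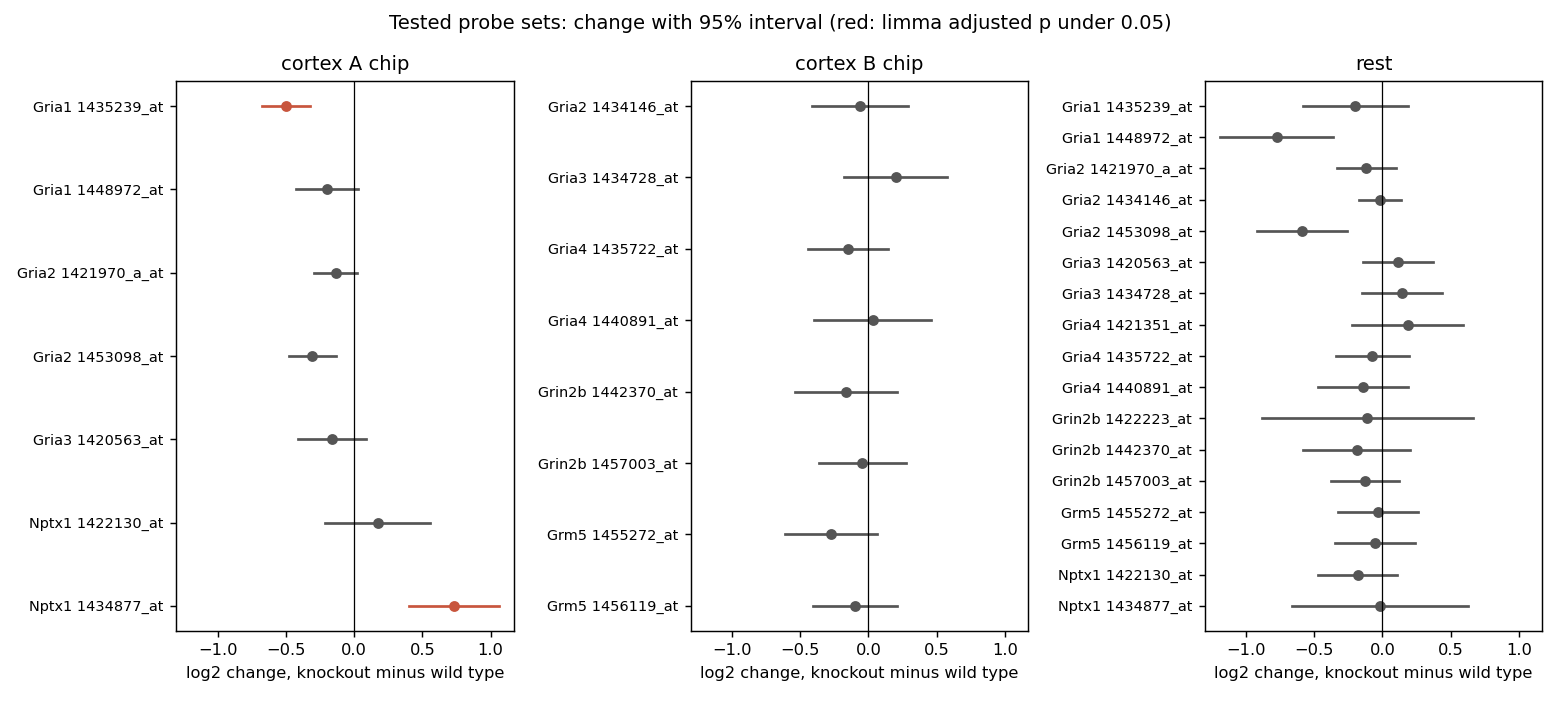
Log2 change (knockout minus wild type, dots) of each of the 32 tested probe sets with its 95% interval from the limma fit (lines), in the cortex A chip, the cortex B chip and the rest table. The calls, in red, are Gria1 1435239_at at -0.50 and Nptx1 1434877_at at 0.73 on the A chip, and 14 of the 17 probe sets of the rest table lie below 0.

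The probe sets of a gene gave different changes. For each array the log2 signal of one probe set was subtracted from that of the other, which largely removes the level of the array. The Gria1 difference (1435239_at minus 1448972_at) was 0.18, 0.56 and 0.43 in wild-type cortex and 0.17, 0.16 and -0.07 in knockout cortex. The rest table gave 0.28, 0.61 and 0.82 in wild type and 1.31, 1.02 and 1.10 in knockout. Knockout arrays were thus all lower in cortex and all higher in the rest table. In cortex the margin was narrow, at 0.173 in knockout replicate 1 and 0.181 in wild-type replicate 1. The changes were -0.30 and 0.58 (exact two-sided permutation p = 0.1 each, the smallest that 3 against 3 allow).

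The contrast between the tables was 0.88. It was looked at after the Gria1 values had been seen and is given as a description, with no test. For Gria2 the contrast was 0.30 and for Nptx1 (1422130_at minus 1434877_at) 0.39. The Gria2 difference (1421970_a_at minus 1453098_at) was higher in knockouts without overlap in cortex (1.65 ± 0.0526 against 1.48 ± 0.0847) and in the rest table (2.56 ± 0.215 against 2.08 ± 0.139; SD, n = 3 each; exact permutation p = 0.1 each). The Nptx1 difference was lower in knockouts without overlap in cortex (0.07 ± 0.419 against 0.63 ± 0.187, SD, n = 3 each, exact permutation p = 0.1). The margin was narrow, at 0.387 against 0.425. This change of -0.56 was larger in size than that of Gria1 in cortex. In the rest table the Nptx1 groups overlapped (-0.17, exact permutation p = 0.8). Which part of a transcript each probe set reads is not given in the sources used here.

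**Figure D3:**
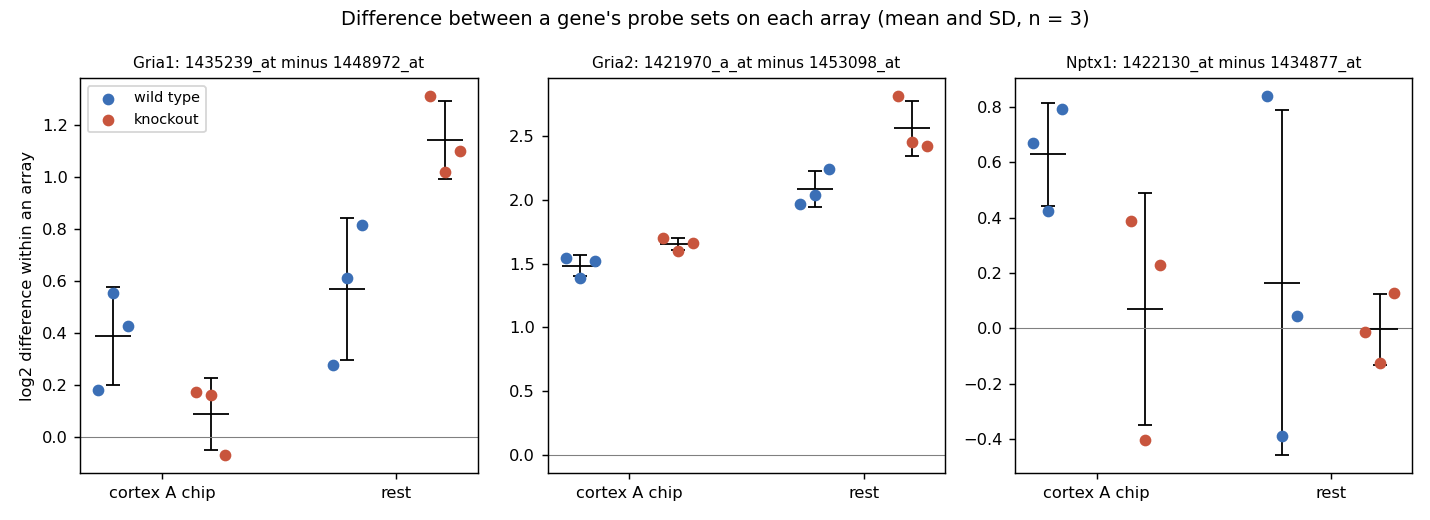
Log2 difference between a gene's probe sets on each array, for Gria1, Gria2 and Nptx1 on A chips and in the rest table (points are arrays, lines the mean, bars the SD, n = 3). For Gria1 the knockout mean is below wild type in cortex (0.09 against 0.39) and above it in the rest table (1.14 against 0.57).

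The difference between the cortex and rest effects was also tested gene by gene in a joint limma fit of the A chip and rest tables. This fit treated the arrays as independent. The sample titles do not say whether same-numbered cortex and rest arrays share an animal. Over 11959 shared probe sets 0.0502% were called, and 0 of 7 member probe sets were. The effect on Nptx1 1434877_at was lower in the rest table by -0.75 (SE 0.366, unadjusted p = 0.0613, limma adjusted p = 0.499). For Gria1 1435239_at it differed by 0.30 (SE 0.211, limma adjusted p = 0.656) and for 1448972_at by -0.58 (SE 0.237, unadjusted p = 0.0289, limma adjusted p = 0.404). The members' changes in cortex are therefore not shown to be limited to cortex. Only 1448972_at had an unadjusted p under 0.05 in this fit. With same-numbered arrays of a genotype joined across the tables as a random block (consensus correlation 0.0461), 0 members were called.

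The wider glutamate synapse was read from a list of 73 other genes. None passed in any table: 0 of 36 tested on the A chip, 0 of 39 on the B chip and 0 of 61 in the rest table, with 11, 6 and 4 genes at an unadjusted limma p under 0.05 in their brightest probe set. Among all probe sets tested, 15.7%, 7.39% and 10.5% had such a p. The median log2 changes of the list genes were -0.11, -0.11 and -0.04. On the A chip 24 of the 36 genes were lower in knockouts and 12 higher, beside 52.1% of all probe sets lower.

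Auxiliary subunits, which escort AMPA and kainate receptors to the membrane and tune their gating, were the group with most low p-values on the A chip. Of 7 tested, 6 were lower in knockouts and 5 had an unadjusted limma p under 0.05, and their median log2 change was -0.29. Over all A chip probe sets, 52.1% were lower and 15.7% had such a p. The cornichon Cnih2 had a mean of 1837 ± 116 in wild-type cortex and 1534 ± 41 in knockouts (SD, n = 3 each; log2 change -0.26, limma adjusted p = 0.086). Cacng2, the founding TARP subunit stargazin, read 1099 ± 114 and 807 ± 29.5 on the B chip (SD, n = 3 each; -0.43, limma adjusted p = 0.364). For the rest samples, 10 of 14 auxiliary subunit genes were lower in knockouts, with a median of -0.07, and 3 had an unadjusted limma p under 0.05. Over all probe sets of that table, 49.8% were lower and 10.5% had such a p.

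Nptx2, an activity-regulated pentraxin that assembles with Nptx1, had a mean of 70.6 ± 20.1 in wild-type cortex and 124 ± 24 in knockouts (SD, n = 3 each). Its log2 change was 0.70, with an SE of 0.196 and a limma adjusted p of 0.0945. The change was close in size to that of Nptx1 1434877_at but did not pass. Its change in the rest table was 0.23 (limma adjusted p = 0.566). The scaffold gene Dlg2 had the lowest p of the list on the B chip, 1026 ± 265 against 1730 ± 99.2 (SD, n = 3 each; log2 change 0.77, limma adjusted p = 0.067). Without wild-type replicate 2 it passed (0.97, limma adjusted p = 0.0112), and without any other single array it did not (limma adjusted p 0.126 to 0.28).

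The 3 kainate receptor subunits tested on the A chip were all lower (median -0.27), with 2 at an unadjusted p under 0.05, and 0 passed. Postsynaptic scaffold and trafficking genes were balanced, with 9 of 15 lower and a median of -0.01. Among the rest samples the lowest p-values of any probe set on the list were those of Homer2, a scaffold gene, and of Slc1a3, a glial glutamate transporter. Homer2 read 713.8 ± 62.4 in wild type and 472.9 ± 88.4 in knockout (SD, n = 3 each; -0.59, limma adjusted p = 0.138). Slc1a3 read 901.3 ± 83 and 672 ± 36.6 (SD, n = 3 each; -0.41, limma adjusted p = 0.121), while its other probe sets there had log2 changes of -0.14 to 0.01.

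**Figure D4:**
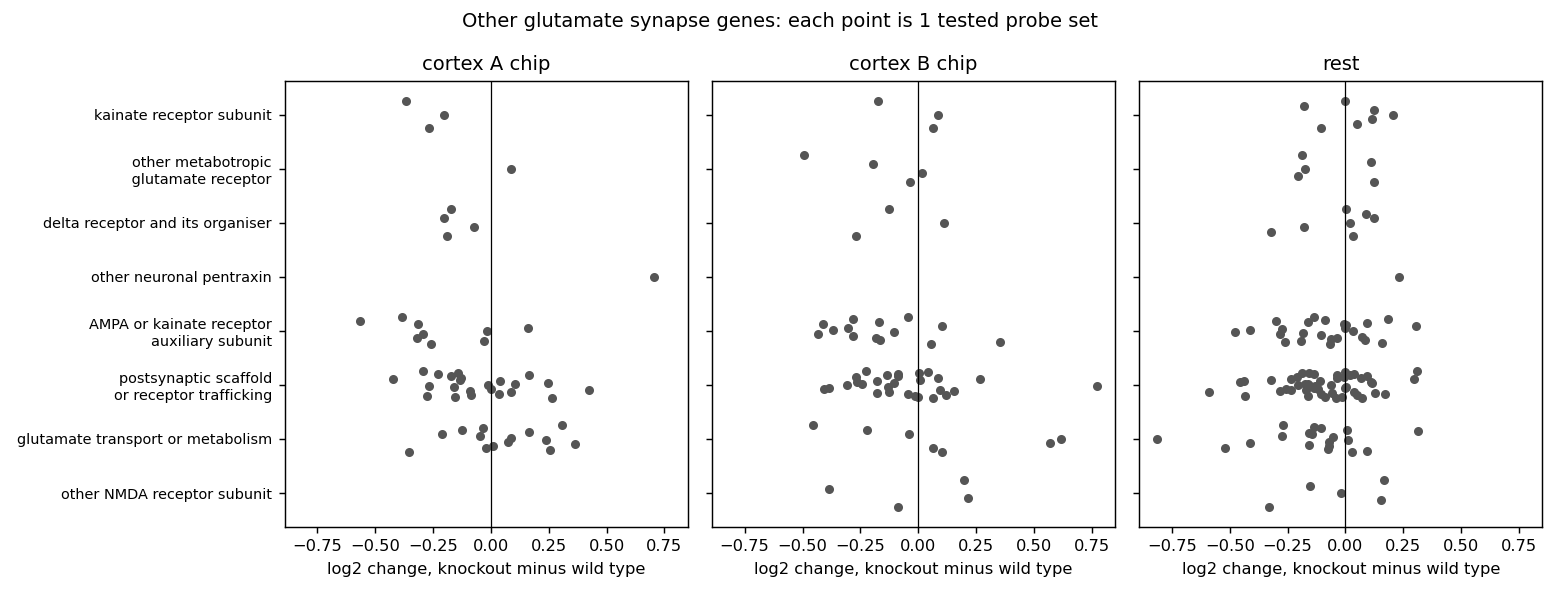
Log2 change (knockout minus wild type) of the tested probe sets of 73 other glutamate synapse genes, 1 point per probe set, by role and table. On the A chip most auxiliary subunit and kainate receptor points lie below 0 and the pentraxin Nptx2 lies at 0.70; none of the points passed the limma threshold.

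Markers of other cells moved with the genotype in the same cortex arrays. The lists held 9 to 11 genes each, and genes missing from the chip or blank on too many arrays were not tested. Sums are over the genes listed on all 6 arrays. Pan-neuronal genes did not pass: 0 of 10, with a median log2 change of -0.05 and a summed signal of 14050 to 14940 in wild type and 14030 to 14260 in knockout. Of 7 excitatory cortical neuron genes 1 fell, Mef2c, and the summed signal of 6 of them was 4603 to 4754 in wild type and 3892 to 4362 in knockout. Mef2c holds most of that sum, with means of 3227 in wild type and 2498 in knockout. Of the 7 genes, 4 were higher and 3 lower in knockouts, with a median log2 change of 0.09. Of 7 interneuron genes 3 fell (Dlx1, Lhx6 and Gad1), with sums of 2920 to 3140 and 2559 to 3068. In all 5 were lower and 2 higher, with a median log2 change of -0.58. The higher ones, Sst (0.23) and Npy (0.20), were not called and are part of the sums.

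Of 8 mural and meningeal genes 7 rose (sums 2386 to 2769 and 6365 to 7666), as did 6 of 7 microglial and macrophage genes (1873 to 2152 and 3259 to 3664) and 4 of 10 astrocyte genes (6831 to 7367 and 8628 to 9956). Of 8 endothelial genes 3 rose, with sums of 1398 to 1618 in wild type and 1958 to 2198 in knockout. Of 4 oligodendrocyte genes 3 fell (2148 to 2749 and 641 to 1015), as did 2 of 6 genes of their precursors (2247 to 2593 and 1644 to 2077). Of 3 immediate early genes tested, Jun and Bdnf rose, and the summed signal was 973 to 1472 in wild type and 1558 to 2257 in knockout. The part of these cell types and of the immediate early genes in the Gria1 and Nptx1 changes was not tested.

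None of 7 excitatory cortical neuron genes passed in the rest table, but the summed signal of 5 of them was uneven: 2308 to 2760 in wild type and 2918, 1341 and 1871 in knockout replicates 1, 2 and 3. Gria1 1448972_at was nearly equal on those 3 knockout arrays (445, 422 and 430). The other Gria1 probe set, 1435239_at, read 1132, 873 and 940 on them, in the same order as the sums. Pan-neuronal genes summed to 33010 to 35780 in wild type and 33830 to 36290 in knockout, with 0 of 10 called. Of 8 oligodendrocyte precursor genes, cells that also carry AMPA receptors, 3 fell (9816 to 10460 in wild type, 4598 to 6763 in knockout). Of 7 oligodendrocyte genes 2 fell (6788 to 7139 and 1083 to 3665), and of 10 mural and meningeal genes 5 rose (4057 to 7527 and 10300 to 10520). None of the astrocyte, microglial, endothelial, interneuron and immediate early genes tested passed there. Microglial sums were 3096 to 3495 in wild type and 3763 to 4476 in knockout. The part of these cell types in the Gria1 and Gria2 values was not tested.

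Gria1 and Nptx1 lie on chromosome 11, as does Brca1 (RefSeq, GRCm38.p6). On the A chip 3.31% of 996 tested probe sets of genes on that chromosome were called, against 3.07% of 10156 on the others.

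Over the 12 arrays of the A chip and rest tables, with values centred within each table, the genes most like Gria1 1435239_at were Pou3f1 (Pearson r = 0.918), a POU-domain transcription factor, then B4galt6 (0.905), a glycolipid enzyme, Sh3glb1 (0.903), Chchd6 (0.902) and Chkb (0.894). Within the 6 arrays of each table, Pou3f1 reached 0.863 in cortex and 0.967 in rest. Those most like Nptx1 1422130_at, its brighter probe set, which was not called, were Rmi1 (0.909), Lzts2 (0.898), Poldip3 (0.882), Sf3b4 (0.868) and the nucleolar protein gene Fbl (0.847). These are the highest of 10058 probe sets compared, the arrays share genotype and scaling, and the coefficients are descriptions.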

How the data were processed

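The deposited files hold 1 linear intensity per probe set and array, computed by the authors in MAS5, per the submitters' processing notes, which give no version or setting. Total RNA was extracted with TRIZOL, per the labels' protocols. Control probe sets were left out. Within a table, arrays were scaled to equal 2%-trimmed means over the probe sets that all 6 arrays list. Knockout and wild type were compared with limma 3.58.1 in R 4.3.3 on log2(signal + 16), with an intensity trend and Benjamini-Hochberg adjustment over 12065 (A chip), 7838 (B chip) and 21407 (rest) probe sets. No fold was computed for probe sets blank in one genotype. Gene symbols come from the array annotation, updated by gene identifier from RefSeq.

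All member probe sets were named, plus, per table, the list genes called or the 2 with the lowest p. The members and lists were chosen with earlier results of these data known. The fit was tested on simulated data, with a log2 change of 1 in size given to 100 probe sets per table. Of these, 91% were called on the A chip, 54% on the B chip and 69% in the rest table. Same-numbered wild-type and knockout arrays did not deviate together on the A chip (correlations -0.00876 to 0.0189), and numbers were not treated as pairs in any main fit. On the B chip, however, each wild-type array correlated best with the knockout array of its own number (0.0721 to 0.159). So did replicate 3 of the rest table (0.251). A fit with a replicate block is given among the alternatives.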

Additional observations from a re-analysis of the deposited data

Results flagged for a closer look

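The knockout effect on the difference between the Gria1 probe sets ran in opposite directions in cortex (-0.30) and in the rest table (0.58). The genotypes did not overlap in either. In cortex the margin was narrow, with wild-type replicate 1 at 0.181 and knockout replicate 1 at 0.173. The contrast was 0.877 on the log2 scale. It was chosen after the values had been seen, and the difference was not tested. In the joint limma fit of single probe sets neither Gria1 probe set passed (adjusted p = 0.656 for 1435239_at and 0.404 for 1448972_at). Groups of 3 arrays are too small for a test of single outlying arrays.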

How the results depend on the processing

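Of 20 alternatives per table, all kept the direction of Gria1 1435239_at (-0.57 to -0.46) and Nptx1 1434877_at (0.63 to 0.91) on the A chip, where the first was called in 19 and the second in 13. Both counts include the adjusted p of 0.10, a looser threshold on the same fit that cannot lose a call. The number of member probe sets called there was 1 with blanks set to a low signal, 1 without a variance trend, 0 with the sex-marker term and 1 to 2 on leaving out each array in turn. It was 0 on the B chip in all, and for the rest samples 0 except without wild-type replicate 3 (1; range 0 to 1). At an adjusted p of 0.10, Gria2 1453098_at was also called on the A chip (limma adjusted p = 0.068). Other glutamate synapse genes called numbered 1 (Glul) with a replicate block and 2 (Cnih2 and Nptx2) at an adjusted p of 0.10 on the A chip, and 1 (Dlg2) on the B chip at 0.10 and without wild-type replicate 2 (range 0 to 1). Averaging the probe sets of a gene, an alternative chosen after seeing the data, called Gria1 and not Nptx1.

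Calls over all probe sets on the A chip were 364, 83 with the sex-marker term, 607 at an adjusted p of 0.10 and 186 to 327 without single arrays (186 without knockout replicate 2, 218 without wild-type replicate 1). On the B chip they were 22, 3 with blanks set to a low signal, 9 without a trend, 66 with array weights, 12 with a replicate block, 48 at 0.10 and 9 to 25 without single arrays (11 without wild-type replicate 1, 13 without 2, 9 without knockout replicate 2). In the rest table they were 67, 106 with blanks set to a low signal, 11 without a trend, 143 with a replicate block, 10 with the sex-marker term, 161 at 0.10 and 13 to 68 without single arrays (40 and 30 without wild-type replicates 1 and 2, 27 and 13 without knockout replicates 1 and 2). The replicate block changed no member's call (Gria1 1435239_at, limma adjusted p = 0.0182; Nptx1 1434877_at, 0.029). Same-numbered B chips correlated at 0.0721 to 0.159, and same-numbered rest arrays at 0.0227 to 0.251. No alternative called a member in the difference between tables. Signs turned for 13 of 32 member probe sets, none of them called, when averaging over a gene's probe sets is included. For Gria4 1421351_at in the rest table the sign turned only on that averaging (-0.01 against 0.18). For Nptx1 1434877_at in the rest table the sign turned with median centring (0.0021) and quantile normalization (0.02), among others. The cause of these changes was not tested. Leaving out wild-type replicate 1 of the rest table turned the change of the Nptx1 probe set difference from -0.17 to 0.17. With 3 arrays a group, small changes could not be detected, those of dim probe sets included. In the simulated data a log2 change of 1 was missed for many probe sets on the B chip and in the rest table.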
